A study of Mus musculus with 10 samples.

Results

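Class II molecules of the major histocompatibility complex (MHC) carry peptides on the surface of antigen-presenting cells, where CD4 T cells read them. The 10 genes described here were chosen by symbol, each with 1 probe set: H2-Aa, H2-Ab1, H2-Eb1, H2-Eb2, H2-DMa, H2-Oa, H2-Ob, Cd74, Ciita and Ifi30, out of 19938 genes measured. They were measured in 10 melanoma tumours of mice on whole-transcript arrays, 5 labelled Exercise and 5 labelled non-Exercise, 1 array a tumour. The series title speaks of voluntary exercise, tumour growth and natural killer (NK) cells, and the arrays address how tumour transcripts differ between exercised and other mice. All animals are labelled male, and the labels name no strain, melanoma line, age or length of exercise. The labels do not say that the number in a title is an animal, so the tests measure the spread between these tumour samples.

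A class II molecule is a pair of an alpha and a beta chain. In the endoplasmic reticulum the pair is filled by the invariant chain, the product of Cd74, which guides it to endosomes. There Cd74 is cut down by proteases, H2-DM exchanges its last fragment for a peptide, H2-DO restrains H2-DM, and the thiol reductase made from Ifi30 opens disulphide bonds of antigens. Ciita encodes the transactivator that switches these genes on in dendritic cells, B cells and macrophages and, after interferon gamma, in many other cells. CIITA does not bind DNA itself but docks on factors that sit on a shared set of promoter boxes, among them the X box, bound by RFX proteins, and the Y box, bound by NF-Y.

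Promoter windows of 250 bases before the gene start were found in RefSeq (GRCm38.p6) for 7 of the 10 genes. In 5 of them the letters GNAAC, part of the X box, were followed by ATTGG, the Y box letters CCAAT read on the other strand, with 15 to 35 letters between, read along the gene's strand. The same arrangement stood in 1.49% of all 32851 windows of this length. The stretches of these 5 genes are shown because they hold the boxes the transactivator acts through, with the matched letters in capitals.
H2-Aa: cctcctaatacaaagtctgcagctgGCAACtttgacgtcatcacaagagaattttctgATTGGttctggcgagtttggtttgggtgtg
H2-Eb1: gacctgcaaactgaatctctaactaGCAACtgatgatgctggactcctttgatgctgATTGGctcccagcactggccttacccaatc
H2-Eb2: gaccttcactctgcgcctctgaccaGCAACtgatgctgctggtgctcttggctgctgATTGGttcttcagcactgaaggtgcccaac
H2-Oa: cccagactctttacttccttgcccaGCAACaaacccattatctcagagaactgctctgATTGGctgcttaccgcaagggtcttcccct
H2-Ob: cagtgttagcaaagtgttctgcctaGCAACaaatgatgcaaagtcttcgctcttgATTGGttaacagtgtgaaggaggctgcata

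These stretches lie at chr17:34287842-34287929 on the minus strand for H2-Aa and, on the plus strand, at chr17:34305751-34305837 for H2-Eb1, chr17:34325518-34325604 for H2-Eb2, chr17:34092278-34092365 for H2-Oa and chr17:34238793-34238877 for H2-Ob. The gap between the capitals was 28 letters in H2-Aa and H2-Oa, 27 in H2-Eb1 and H2-Eb2 and 25 in H2-Ob. The rule for the gap was set after these sequences had been read. Taken singly and on both strands, CCAAT occurred in 33.8% and GNAAC in 79.6% of all windows. The X box core CTAGCAAC occurred in 1.13%, and H2-Eb1, H2-Eb2 and H2-Ob each held 1, which covers the capital GCAAC in H2-Eb1 and H2-Ob but lies outside the printed stretch in H2-Eb2. TGACG, part of the X2 box bound by CREB, occurred in 17.8% of windows, and in that of H2-Aa it was matched on both strands at 1 palindrome, between the capitals. Neither the 2 windows of H2-DMa nor the window of Ifi30 held the ordered pair. A pair of GAAA with 2 letters between (IRF sites) occurred in 2.98% of all windows and in none of these 7 genes, while CACGTG (USF sites, 6.02% of windows) occurred in that of Ifi30. These matches describe letters, not occupied sites.

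The tumours showed the tissue named by the labels. The 8 melanocyte genes measured lay at a median percentile of 99.7 of mean level, and none of them passed the test in either direction, with 2 lower at an unadjusted p under 0.05 in limma. Arrays of different tumours correlated at 0.960 to 0.996 across genes. Some arrays stood apart. Transcripts of hepatocytes were high in Exercise arrays 306, 309 and 310, where the mean centred log2 level of 14 genes was 1.05 to 1.68, against -0.73 to -0.36 in the other 7. Xist, the RNA of X inactivation made in female cells, went against the label male in 9 arrays, at 9.50 to 11.72 on the log2 scale. It was at 7.20 in Exercise array 301 alone. Whether the host animals or the tumour cells carried that RNA was not tested. The Y-linked genes Kdm5d, Eif2s3y and Uty were in array 301 at 9.41, 7.32 and 6.70, inside the range of the other 9 arrays. Class II results below are given also without arrays 306, 309 and 310. That fit compares 2 Exercise arrays with 5 non-Exercise arrays. The arrays left out were also the highest of all for H2-Aa, H2-Ab1, H2-Eb1, Cd74, H2-DMa and Ciita. For these genes a smaller change in that fit was therefore fixed in advance. A missed threshold there is not read as a result about hepatocyte transcripts, whose part in the changes was not tested.

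H2-Aa, H2-Ab1 and H2-Eb1, which encode chains of the classical class II molecules, rose in the Exercise group, and the other 7 members did not pass the test. Among these 10 members limma called 3 higher and 0 lower (adjusted p under 0.05 over all genes), where 6.35% of all genes were called higher and 10.6% lower. At an unadjusted p under 0.05 in limma 6 were higher and 0 lower. The share of all genes at that unadjusted threshold is not given, here or below, so such counts have no background beside them. In this fit it is at least the 6.35% and 10.6% called after adjustment. Such counts are therefore not read as results about these genes. The median log2 change of the 10 genes was 0.55, beside -0.02 over all genes. A change is the Exercise mean less the non-Exercise mean in log2 units, and ± after it gives the standard error (SE). In whole-tumour RNA, more cells of a type and more RNA per cell cannot be told apart.

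H2-Aa encodes the alpha chain of the I-A molecule. Its log2 values were 10.40, 9.57, 11.48, 11.93 and 12.29 in Exercise arrays 300, 301, 306, 309 and 310. They were 10.10, 9.56, 9.66, 9.21 and 9.43 in non-Exercise arrays 326, 327, 329, 330 and 331. The 4 highest arrays were all Exercise arrays, and array 301 lay inside the non-Exercise range. The group means were 11.13 ± 1.13 and 9.59 ± 0.33 (SD, n = 5 each), a 2.91-fold difference or a log2 change of 1.54 ± 0.40 (limma adjusted p = 0.0167). The call of H2-Aa held when any 1 array was left out (limma adjusted p 0.000466 to 0.0467). Without the 3 arrays with hepatocyte transcripts the change was 0.39 ± 0.22 and missed the threshold (limma adjusted p = 0.294). These 3 arrays held the highest H2-Aa values and 2 Exercise arrays remained, so a smaller change follows from the choice of arrays.

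H2-Ab1 encodes the I-A beta chain that pairs with the product of H2-Aa. Its values were 10.11, 9.40, 11.03, 11.54 and 11.98 in the Exercise arrays and 9.99, 9.59, 9.62, 9.03 and 9.55 in the non-Exercise arrays, in the same order. Again 4 Exercise arrays stood above all others and array 301 did not, but array 300 exceeded non-Exercise array 326 by little. H2-Ab1 rose by 1.25 ± 0.38, or 2.39-fold (limma adjusted p = 0.0340). Leaving out any single one of Exercise arrays 306, 309 and 310 or of non-Exercise arrays 327, 329, 330 and 331 ended this call (limma adjusted p from 0.00140 to 0.0887 over the 10 such fits). Without the 3 arrays together the change was 0.20 ± 0.21.

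H2-Eb1 encodes the beta chain of I-E, the second classical class II molecule. It measured 10.68, 9.92, 11.62, 12.02 and 12.30 in the Exercise arrays and 10.45, 9.98, 10.06, 9.81 and 10.002 in the non-Exercise arrays. The pattern was that of the I-A genes, with array 301 among the non-Exercise values. H2-Eb1 rose by 1.25 ± 0.34, or 2.37-fold (limma adjusted p = 0.0234). Leaving out any single one of Exercise arrays 309 and 310 or of non-Exercise arrays 327, 329 and 330 ended its call (limma adjusted p from 0.000512 to 0.0591 over the 10 such fits), and the change without the 3 arrays was 0.24 ± 0.18.

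H2-Ea, the gene of the I-E alpha chain and no member of the set, was measured as well and did not follow its partner H2-Eb1. Its change was -0.11 ± 0.09 (limma adjusted p = 0.482), at percentile 28.3 of mean level. With robust eBayes the calls of H2-Aa, H2-Ab1 and H2-Eb1 all ended (limma adjusted p = 0.0850, 0.132 and 0.104).

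**Figure D1:**
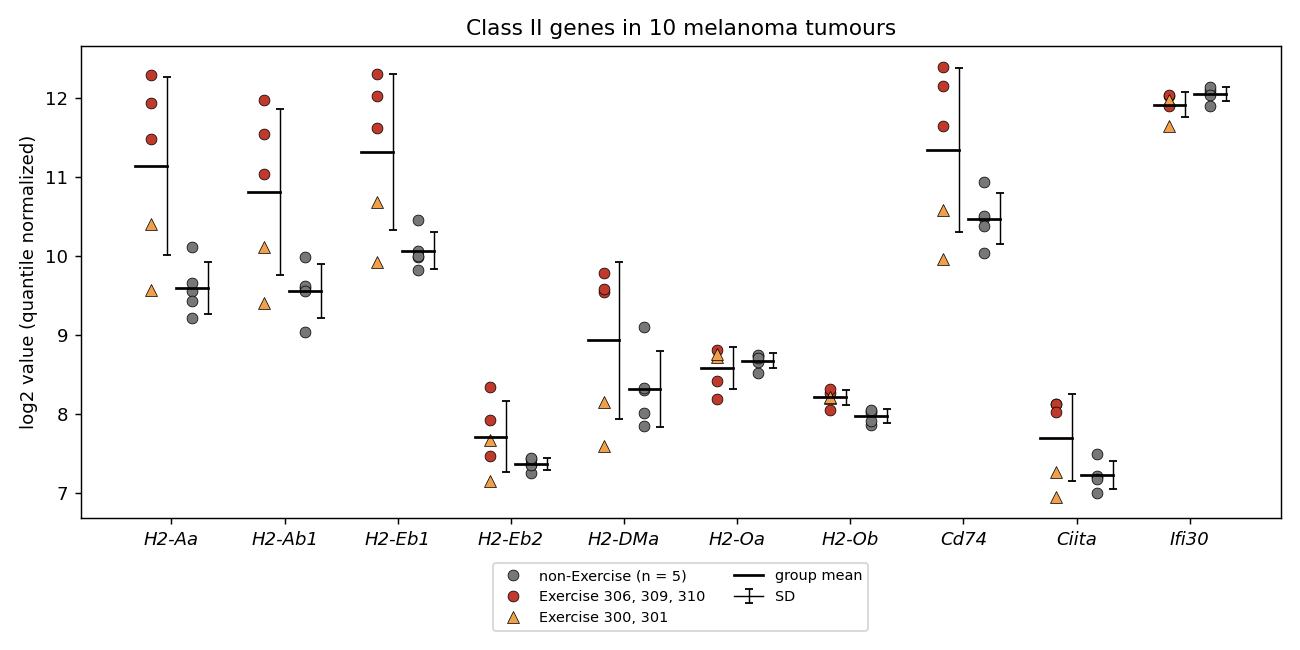
Log2 values of the 10 class II genes (y axis, quantile normalized) in each array, with Exercise arrays 306, 309 and 310 as red circles, 300 and 301 as orange triangles and the 5 non-Exercise arrays as grey circles; bars are group means and SD. The red circles stand highest for H2-Aa, H2-Ab1, H2-Eb1, Cd74, H2-DMa and Ciita, and array 301 falls to the grey range or below.

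H2-Eb2, a second E beta gene next to H2-Eb1 in the genome, was dim, at percentile 15.6 of mean level. It lay between 7.15 and 8.34 in the Exercise arrays with a median of 7.66, and between 7.24 and 7.43 in the non-Exercise arrays. Exercise arrays 310, 309, 300 and 306 exceeded all non-Exercise arrays and array 301 lay below them all. Its log2 change was 0.34 ± 0.17 (limma adjusted p = 0.198), and it passed without array 301 alone (0.48, limma adjusted p = 0.0308). It was 0.04 ± 0.14 without the 3 arrays.

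Cd74 encodes the invariant chain, the partner that each of the classical pairs takes up. Its values were 10.58, 9.96, 11.64, 12.14 and 12.39 in the Exercise arrays and 10.94, 10.48, 10.51, 10.04 and 10.38 in the non-Exercise arrays. Here 3 Exercise arrays stood above the others, array 300 lay inside the non-Exercise range and array 301 below it. The change was 0.88 ± 0.37 (limma adjusted p = 0.125), with a 95% interval from 0.09 to 1.67. It passed without array 301 (1.22, limma adjusted p = 0.00698) and was -0.20 ± 0.19 without the 3 arrays with hepatocyte transcripts.

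H2-DMa encodes the alpha chain of the peptide exchanger H2-DM. Its values were 8.15, 7.59, 9.79, 9.54 and 9.58 in the Exercise arrays and 9.09, 8.30, 8.33, 8.01 and 7.85 in the non-Exercise arrays. The 3 high arrays stood between 9.54 and 9.79, array 300 lay inside the non-Exercise range and array 301 below it. The change of 0.61 ± 0.38 did not pass (limma adjusted p = 0.319). Without array 301 it was 0.95 and passed (limma adjusted p = 0.0382), and without the 3 arrays it was -0.45 ± 0.26.

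H2-Oa and H2-Ob encode the chains of H2-DO, the inhibitor of H2-DM known from B cells and thymus. H2-Oa measured 8.71, 8.76, 8.41, 8.80 and 8.19 in the Exercise arrays and 8.52 to 8.74 in the non-Exercise arrays. Arrays 306 and 310, high for the classical chains, were the 2 lowest arrays for H2-Oa. Its change was -0.10 ± 0.11 (limma adjusted p = 0.670). H2-Ob lay between 8.05 and 8.31 in the Exercise arrays and between 7.86 and 8.05 in the non-Exercise arrays, with array 306 the only Exercise array inside the non-Exercise range. H2-Ob changed by 0.23 ± 0.08 and narrowly missed the threshold (limma adjusted p = 0.0610). Its change was as large without the 3 arrays with hepatocyte transcripts, 0.23 ± 0.11 (limma adjusted p = 0.185). H2-Ob passed without array 306 (0.27, limma adjusted p = 0.0366), in the table as deposited (0.30, limma adjusted p = 0.0267) and with median centring (0.24, limma adjusted p = 0.0468). It also passed in further settings given at the end.

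Ciita, the gene of the transactivator, was the dimmest member, at percentile 13.9 of mean level. Its values were 7.26, 6.95, 8.12, 8.12 and 8.02 in the Exercise arrays and 7.49, 7.20, 7.21, 7.18 and 6.998 in the non-Exercise arrays. The 3 arrays with high classical chains were again the 3 highest, array 300 lay inside the non-Exercise range and array 301 below it. The change was 0.48 ± 0.21 (limma adjusted p = 0.136). It passed without array 301 (0.67, limma adjusted p = 0.0114) and was -0.11 ± 0.14 without the 3 arrays.

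Ifi30, the gene of the lysosomal thiol reductase, like H2-Oa did not follow the classical chains. It lay between 11.64 and 12.04 in the Exercise arrays and between 11.90 and 12.13 in the non-Exercise arrays. Array 301 was the lowest of all. The change was -0.13 ± 0.07 (limma adjusted p = 0.253), and -0.24 ± 0.08 without the 3 arrays (limma adjusted p = 0.0845).

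**Figure D2:**
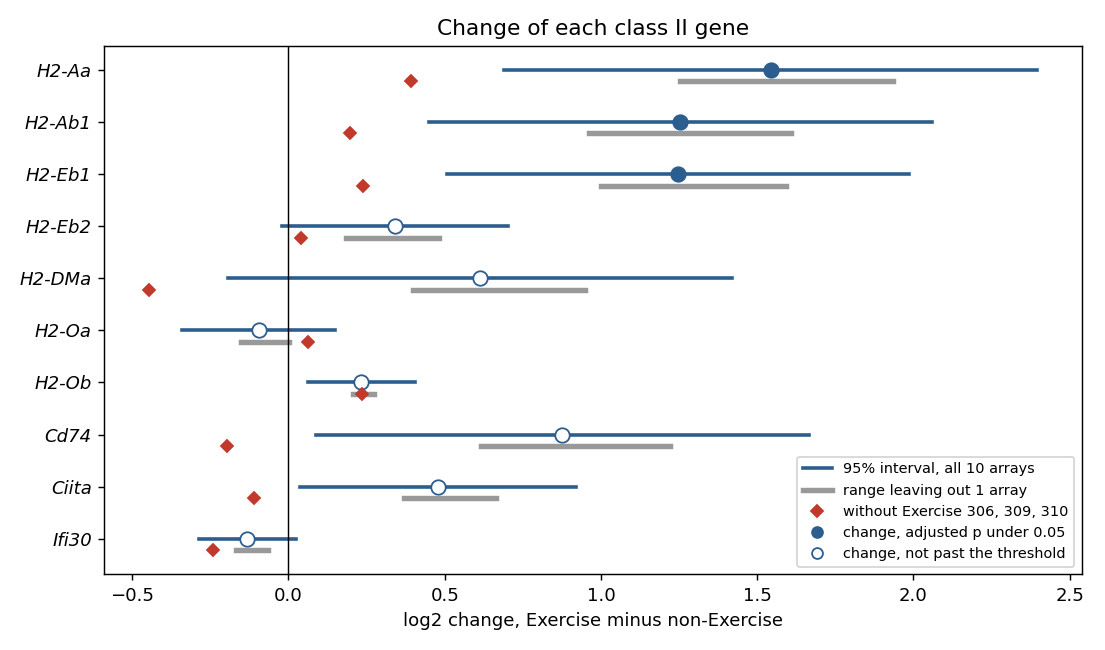
Log2 change of each class II gene, Exercise minus non-Exercise (x axis), with its 95% interval over 10 arrays (blue), the range when 1 array is left out (grey) and the value without Exercise arrays 306, 309 and 310 (red diamonds); filled circles passed an adjusted p under 0.05. H2-Aa, H2-Ab1 and H2-Eb1 are filled, and without the 3 arrays H2-DMa (-0.45), Cd74 (-0.20) and Ciita (-0.11) lie below 0.

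The members had a wider spread in the Exercise group than in the other. The share of all genes with a wider Exercise spread was not computed, so this is not shown to be particular to the members. Across all genes, Exercise arrays correlated with each other at 0.976 to 0.99 and non-Exercise arrays at 0.987 to 0.996. The SD of the Exercise arrays was 3.38 times that of the non-Exercise arrays for H2-Aa, 4.19 times for H2-Eb1 and 5.94 times for H2-Eb2, but 1.15 times for H2-Ob. For H2-Aa, H2-Ab1, H2-Eb1, H2-DMa, Cd74 and Ciita, Exercise arrays 306, 309 and 310 each lay above arrays 300 and 301, and no label separates these arrays.

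Within an array, H2-Aa, H2-Ab1 and H2-Eb1 changed by more than Cd74. H2-Aa minus Cd74 was -0.19, -0.39, -0.17, -0.21 and -0.10 in the Exercise arrays and -0.83, -0.92, -0.85, -0.83 and -0.95 in the non-Exercise arrays. The groups did not overlap, and both arrays 300 and 301 kept with the other Exercise arrays. The difference between groups was 0.67 on the log2 scale, or 1.59-fold (two-sided exact permutation p = 0.00794, the lowest possible with 252 splits, and adjusted p = 0.0175 over 11 pairs). It was 0.59 without arrays 306, 309 and 310, with both remaining Exercise arrays above all non-Exercise arrays (exact permutation p = 0.0476, the lowest possible with 21 splits, and adjusted p = 0.105). H2-Ab1 minus Cd74 differed by 0.38 and H2-Eb1 minus Cd74 by 0.37, each with 5 of 5 Exercise arrays above all others (exact permutation adjusted p = 0.0175 for each), and without the 3 arrays by 0.39 and 0.43. Values of different probe sets are not set against each other here as amounts, only their change.

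That separation was uncommon among genes. Of the other 19937 genes, 5 stood above Cd74 in this sense in all Exercise arrays, which is 0.0251%. They were H2-Aa, H2-Ab1, H2-Eb1, Clec2d, the gene of a lectin bound by NK cell receptors, and Rbp4, the carrier of retinol made in liver. Cd74 itself ran from 9.96 to 12.39 in the Exercise arrays, so a gene that did not vary with it could hardly pass. The small share therefore reflects likeness to Cd74 across arrays as well as a larger change. The pairs were chosen after the values had been seen, with H2-Aa as the member of largest change. The direction of the H2-Aa differences, here and below, follows from that choice, and the adjustment over 11 pairs does not allow for it.

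Differences of H2-Aa from the transactivator gene and the exchanger gene also separated the groups, but a dim probe set such as that of Ciita or H2-Eb2 understates a change, so these differences do not show by how much the changes of those genes were unequal. H2-Aa minus Ciita differed by 1.06 and H2-Aa minus H2-DMa by 0.93, with all 5 Exercise arrays above all non-Exercise arrays in each (exact permutation adjusted p = 0.0175 for each), though 4 of 5 for Ciita in the deposited table. Against all genes, H2-Aa minus the gene separated the groups in this way for 2.42% of them. Against its own partner H2-Ab1 the difference was small, 0.29, with 4 of 5 Exercise arrays above all others (exact permutation adjusted p = 0.0218), and against H2-Eb1 it was 0.30 (exact permutation adjusted p = 0.0218). H2-Aa minus Ifi30 (1.68), minus H2-Oa (1.64) and minus H2-Eb2 (1.20) passed as well (exact permutation adjusted p = 0.0218, 0.0349 and 0.0291), and H2-Aa minus H2-Ob (1.31) did not (exact permutation adjusted p = 0.0556). The Ifi30 and H2-Eb2 pairs lost their calls with non-Exercise 327, 329, 330 or 331 left out and the H2-Oa pair with any non-Exercise tumour left out (exact permutation adjusted p up to 0.0546, 0.0679 and 0.0873), while the H2-Ob pair passed without Exercise array 300 or 301. None of the 11 pairs passed after adjustment without the 3 arrays. With 21 splits the lowest possible exact permutation p was 0.0476, so pairs could pass only if all 11 reached it. That outcome therefore does not show that the differences were absent.

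**Figure D3:**
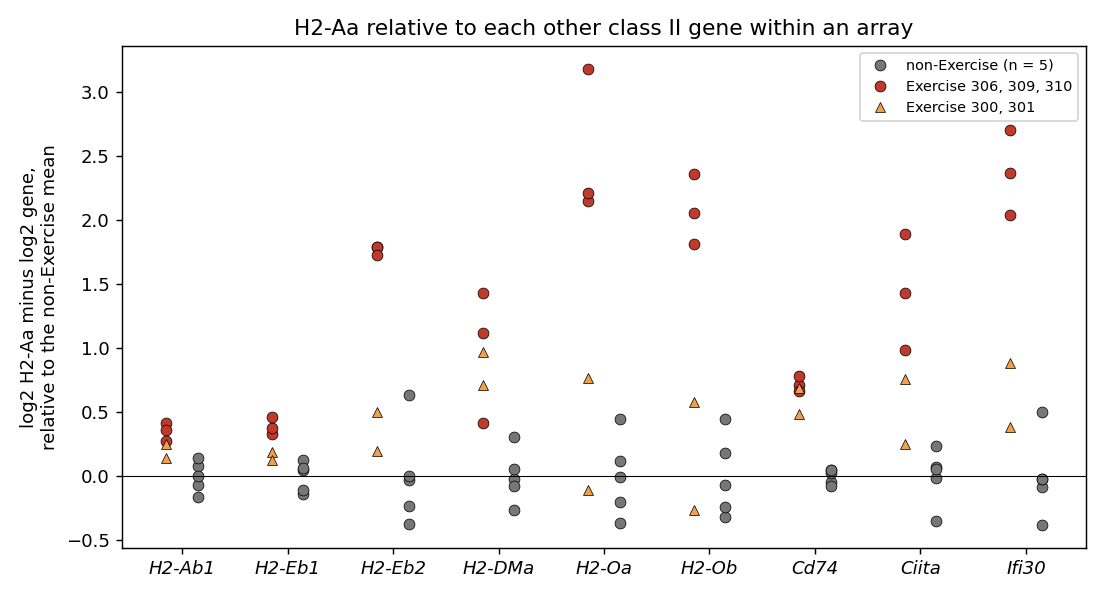
Log2 value of H2-Aa minus that of each other class II gene in the same array (y axis, relative to the non-Exercise mean), for Exercise arrays 306, 309 and 310 (red circles), 300 and 301 (orange triangles) and the 5 non-Exercise arrays (grey circles). Against Cd74 the 5 Exercise arrays sit together above the non-Exercise arrays, a difference of 0.67 between the groups.

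Genes that handle class II molecules and peptides rose in part. Of 9 listed 7 were measured, 3 were higher and 1 lower. Ctss, the gene of cathepsin S, which trims the invariant chain, rose by 1.07 ± 0.25 (limma adjusted p = 0.00968). Lgmn, the gene of the asparaginyl endopeptidase legumain, rose by 0.61 ± 0.12 (limma adjusted p = 0.00410). The ubiquitin ligases that take class II molecules off the surface went in opposite directions, Marchf1 by 0.57 ± 0.16 and Marchf8 by -0.23 ± 0.06 (limma adjusted p = 0.0229 and 0.0208). Ctss and Lgmn kept their calls with any 1 array left out. Marchf1 lost its call with non-Exercise 326 or 330 left out and Marchf8 with 326, 327 or 329 left out (limma adjusted p up to 0.0607 and 0.0599). Without the 3 arrays with hepatocyte transcripts Lgmn (0.40) and Marchf8 (-0.30) passed, and Ctss (0.60) and Marchf1 (0.31) did not.

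Of 11 transcription factor genes tied to class II promoters or to Ciita, 2 were higher and 1 lower. Rfxank, a subunit of the RFX complex on the X box, fell by 0.38 on the log2 scale, from 10.28 to 9.90, and kept its call with any 1 array left out and without the 3 arrays (limma adjusted p = 0.00151 over 10 arrays). Spi1, the gene of the myeloid factor PU.1, rose by 1.02 ± 0.24 (limma adjusted p = 0.00943), and 0.48 without the 3 arrays did not pass. Irf8, a factor of dendritic cells and macrophages, rose by 1.02 ± 0.30 (limma adjusted p = 0.0308). The Irf8 call ended when any single one of Exercise arrays 306, 309 and 310 or of non-Exercise arrays 327, 329, 330 and 331 was left out (limma adjusted p up to 0.0714), and its change was 0.19 without the 3 arrays. The NF-Y subunit gene Nfya, at 0.24, missed the threshold (limma adjusted p = 0.0802), as did Nfyb at -0.19 and Nfyc at -0.10 (limma adjusted p = 0.116 and 0.345). At an unadjusted p under 0.05 the list had 4 higher and 4 lower in limma.

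Of 7 measured genes of interferon gamma and its signalling, 0 passed in limma after adjustment, and at an unadjusted p under 0.05 in limma 3 were higher and 1 lower. Irf1, an interferon gamma target that acts on a Ciita promoter, changed by 0.90 ± 0.35 (limma adjusted p = 0.102). The signal inhibitor gene Socs1 stood at 0.39 and the kinase gene Jak2 at 0.21. Ifngr2, the gene of a receptor chain, was the lower one, at -0.14 ± 0.05 (limma adjusted p = 0.0836), and passed as lower without the 3 arrays (-0.19, limma adjusted p = 0.0419), and without Exercise array 309 or non-Exercise array 331. Without array 300, and likewise without array 301, 2 genes of this list were higher. Without the 3 arrays Irf1 was at -0.09 and Socs1 at -0.06. The mean level of the list was higher in arrays 306, 309 and 310, 0.23 to 0.44 as a mean centred log2 value, than in arrays 300 and 301, at -0.19 and -0.17, or in the non-Exercise arrays, -0.24 to 0.02.

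Among 8 genes of contact with CD4 T cells 3 were higher and 0 lower. Cd86, the costimulatory ligand shown beside class II molecules, rose by 0.93 ± 0.18 with all 5 Exercise arrays above all non-Exercise arrays (limma adjusted p = 0.00394; 3.74% of all genes separated in this way), and by 0.61 without the 3 arrays (limma adjusted p = 0.00808). Cd40 rose by 0.54 ± 0.16 (limma adjusted p = 0.0284) and Ctla4, the inhibitory receptor for CD86, by 0.47 ± 0.15 (limma adjusted p = 0.0485). Ctla4 was dim, at percentile 9.15 of mean level. Leaving out Exercise 309 or 310, or non-Exercise 326, 327, 330 or 331, ended the call of Cd40, and leaving out Exercise 306, 309 or 310, or any non-Exercise tumour, ended that of Ctla4 (limma adjusted p up to 0.0682 and 0.114). Neither passed without the 3 arrays (0.19 and 0.16).

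On chromosome 17 the class II genes stand among genes of the class I pathway, and RefSeq places 14 protein-coding genes from H2-Oa to H2-Eb2. Of the 12 with a probe set of their own, 7 are members of the set described here, of which 3 were higher, and 2 of the other 5 were higher. H2-Ab1, H2-Aa and H2-Eb1, the 3 that rose, are next to each other, with H2-Ob and H2-Eb2 on either side. The other 2 were Brd2, the gene of a bromodomain protein (0.35 ± 0.06, limma adjusted p = 0.00183), and Psmb9, an immunoproteasome subunit (1.40 ± 0.46, limma adjusted p = 0.0496). Of 11 class I presentation genes 2 rose, Psmb9 and the class I transactivator Nlrc5 (0.73 ± 0.17, limma adjusted p = 0.0107), and 0 fell. The Psmb9 call ended when Exercise 306, 309 or 310, or any non-Exercise tumour, was left out (limma adjusted p up to 0.116). The class I count was 8 without array 301, 6 without array 300, 1 without any single other array and 0 without the 3 arrays.

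Markers of cells that make class II molecules were compared array by array with the 4 bright class II genes. The mean centred level of H2-Aa, H2-Ab1, H2-Eb1 and Cd74 was -0.09, -0.82, 0.91, 1.38 and 1.70 in Exercise arrays 300, 301, 306, 309 and 310, and -1.01 to -0.16 in the non-Exercise arrays. Of 12 macrophage and monocyte genes 9 rose and 0 fell. Their mean centred log2 level was 0.48, -0.20, 0.12, 0.84 and 1.01 in those Exercise arrays and -0.80 to -0.24 in the non-Exercise arrays. Array 300 therefore had a higher macrophage level than array 306 and a lower class II level. Itgam, which encodes CD11b, rose by 1.43 ± 0.23 and Msr1, a scavenger receptor, by 1.17 ± 0.20, and both passed without the 3 arrays (1.03 and 1.02), where 5 genes of the list were higher.

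Dendritic cell genes rose in 4 of 13 cases and fell in 0, with a mean centred log2 level of 0.01, -0.14, 0.03, 0.37 and 0.72 in the Exercise arrays and -0.36 to -0.09 in the non-Exercise arrays. Ccr7, the receptor that leads mature dendritic cells to lymph nodes, rose by 0.91 ± 0.24 (limma adjusted p = 0.0176), Cd83, a marker of their maturation, by 0.69 ± 0.18 (limma adjusted p = 0.0194), Flt3 by 0.52 ± 0.14 (limma adjusted p = 0.0232) and Kmo by 0.68 ± 0.22 (limma adjusted p = 0.0472). Flt3 and Kmo were dim, at percentiles 8.4 and 6.6 of mean level, which limits what their changes show. The markers of conventional type 1 dendritic cells Xcr1 and Clec9a stood at 0.22 and 0.31 and missed the threshold (limma adjusted p = 0.178 and 0.129). The count of 4 became 7 with array 301 left out, 2 with Exercise 309 or non-Exercise 326, 327 or 330 left out, and 0 without the 3 arrays. Flt3 lost its call in those same 4 fits with a count of 2, and Kmo with Exercise 306, 309 or 310, or any non-Exercise tumour, left out (limma adjusted p up to 0.0589 and 0.112).

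B cell genes rose in 2 of 11 cases and fell in 0. Their mean centred log2 level lay between -0.02 and 0.17 in the Exercise arrays and between -0.16 and -0.02 in the non-Exercise arrays. Cd79b (0.35) and Bank1 (0.33) passed (limma adjusted p = 0.0256 and 0.0349), while Cd79a, the partner of Cd79b in the B cell receptor, changed by -0.22 (limma adjusted p = 0.0818) and Ms4a1, which encodes CD20, by 0.13 (limma adjusted p = 0.487). Cd79b lost its call with Exercise 309 or non-Exercise 326 or 329 left out, and Bank1 with these or Exercise 300 or 310 left out (limma adjusted p up to 0.0619 and 0.0968). The B cell count ran from 0 in those 3 shared fits to 3 without Exercise array 301 or 306, and was 1 without array 300 or 310. It was also 1 without the 3 arrays, but that gene was Blk (0.38, limma adjusted p = 0.0379), which encodes a B cell kinase and stood at 0.16 over the 10 arrays. T cell genes did not pass in 9 of 9 cases in limma, with 4 higher and 1 lower at an unadjusted p under 0.05, and 4 were higher without array 301. Their mean centred log2 level was 0.36 to 0.42 in arrays 306, 309 and 310, -0.20 and -0.29 in arrays 300 and 301, and -0.25 to -0.01 in the non-Exercise arrays.

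Of 5 leukocyte genes 4 rose, among them Ptprc, which encodes CD45, by 1.16 ± 0.27 (limma adjusted p = 0.00921). The mean centred log2 level of the 5 was lowest among the Exercise arrays in array 301, at -0.33. The leukocyte count was 2 without the 3 arrays. Of 14 hepatocyte genes 3 rose and 0 fell, and all 3 arrays with the high levels given above were the arrays with the high class II values. The hepatocyte count was 13 without array 300 or without array 301 and 1 without any 1 other array. Without arrays 306, 309 and 310 the counts were 0 higher and 1 lower. Of the other lists, 2 of 8 NK cell, 1 of 8 adipocyte, 1 of 6 endothelial, 0 of 6 keratinocyte and 0 of 6 skeletal muscle genes were higher and 0 lower in limma, and at an unadjusted p under 0.05 the last 2 lists also had 0. The NK cell count was 5 without array 301, 3 without array 306, 2 without array 300, 1 without any single other array and 0 without the 3 arrays. The endothelial count was 3 without array 301 and 2 without array 306. The adipocyte count was 0 without the 3 arrays and without any single array other than Exercise 301 and 306 and non-Exercise 329. The part of any of these cell types, or of the RNA that came with them, in the class II result was not tested.

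**Figure D4:**
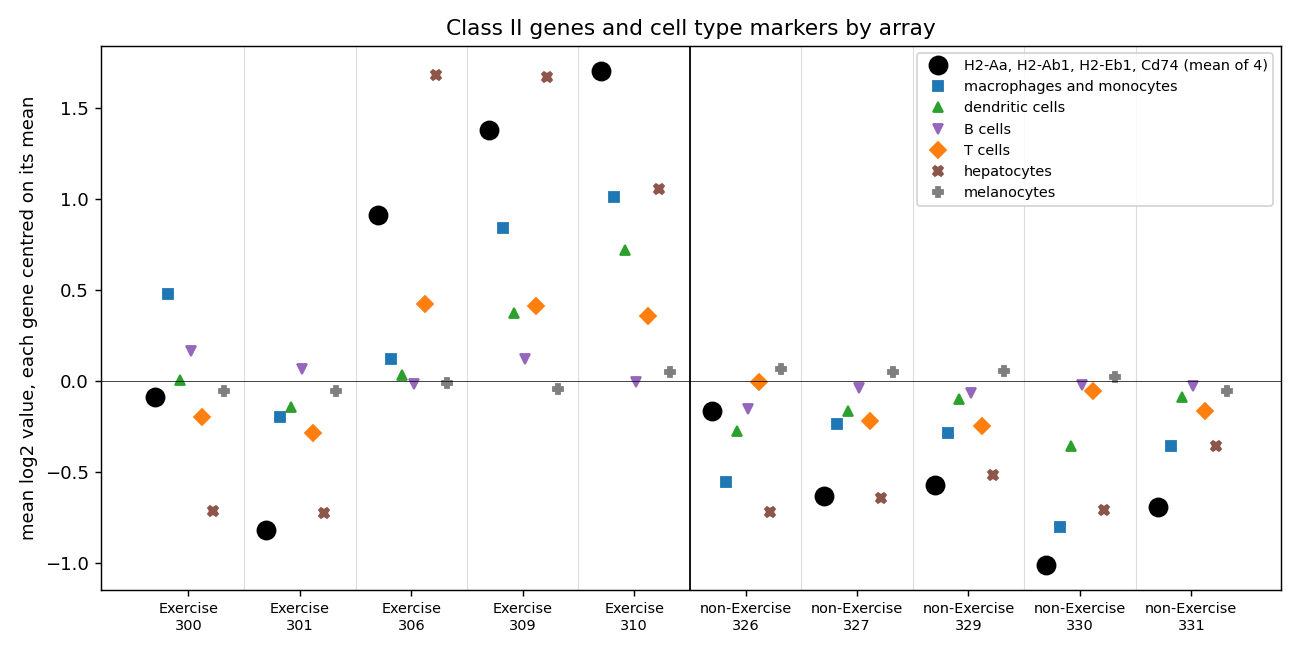
Mean log2 value, with each gene centred on its mean over the 10 arrays (y axis), of H2-Aa, H2-Ab1, H2-Eb1 and Cd74 (black) and of 6 lists of cell type markers, in each array. The black points are highest in Exercise arrays 306, 309 and 310 (0.91, 1.38 and 1.70), where hepatocyte and T cell markers are also high, while macrophage markers are high in arrays 309, 310 and 300.

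The genes most like the 4 bright class II genes were found by the root mean square difference of their centred log2 values from the mean profile of these 4 over the 10 arrays. Leaving out the members, the nearest 8 were Sp100 (0.22), a nuclear body protein induced by interferon, Cd52 (0.24), a small surface glycoprotein of leukocytes, Plbd1 (0.26), Ifi203 (0.28), Rbp4 (0.29), Apobec3 (0.29), a cytidine deaminase that restricts retroviruses, Slamf8 (0.29), a receptor of myeloid cells, and Trim30a (0.30), all as log2 differences. Among the members the distance was 0.42 for H2-DMa, 0.53 for Ciita, 0.67 for H2-Eb2, 0.84 for H2-Ob, 0.92 for Ifi30 and 1.03 for H2-Oa, so those 8 genes outside the set lay nearer to the profile than any of these 6. The measure favours genes with changes of like size. All 8 were higher in the Exercise group, from 0.91 for Slamf8 to 1.42 for Ifi203, which follows from the choice.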

How the data were processed

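The authors deposited 1 log2 value per probe set, summarised with PLIER per the submitters' processing notes; the log base is taken from the range of 4.66 to 14.55, and no source used here states a scaling between arrays. Array medians differed by 0.126, so the table was quantile normalized (limma 3.58.1, R 4.3.3). Of 35556 probe sets 21789 had 1 gene symbol, 1621 several and 12146 none; symbols follow GRCm38.p6 through Entrez identifiers. A gene with more than 1 probe set was represented by its brightest by mean; each member had 1. Two-sided moderated tests came from lmFit and eBayes (trend on), Benjamini-Hochberg adjusted over 19938 genes at 0.05. Fits without arrays kept the normalization. The exact permutation tests of 11 within-array differences were added after the values were seen, as was their adjustment.

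The members, gene lists and marker lists were chosen with earlier results of these data known. Named genes are all members, up to 4 of each list with the smallest p, the 8 nearest the class II profile, and Clec2d, Brd2, H2-Ea, Nfyb, Nfyc, Blk, Xist, Kdm5d, Eif2s3y, Uty, Xcr1, Clec9a and Ms4a1, chosen after their values were seen. H2-DMb1 and H2-DMb2 were among listed genes not analysed here. The number of arrays limits the precision. No scan date was used, so no batch was tested. In 10 simulations of this comparison with 19938 genes, the fit recovered 73.7% of log2 changes of 0.5 and 96.8% of those of 1, at a mean of 8 false calls. The simulated noise was independent between genes and had the same SD in both groups. In the data the Exercise SD of H2-Aa was 3.38 times the non-Exercise SD, so these shares may not hold for the members. Figures used Python 3.11.15 and matplotlib 3.10.9.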

Additional observations from a re-analysis of the deposited data

How the results depend on the processing

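The count of 3 higher class II genes was 3 or 4 with the deposited table, median centring, a filter on genes under the 25th percentile of level, averaged probe sets, no intensity trend, array weights and a threshold of 0.10. The filter left 8 members to test, without Ciita and H2-Eb2. In these settings 4.7% to 8.85% of all genes tested were called higher. It was 0 with robust eBayes (H2-Aa at limma adjusted p = 0.0850; 4 higher at an unadjusted p under 0.05), 0 with the exact Wilcoxon test, which called 0 of all genes (2 members at an unadjusted p under 0.05), and 0 without Exercise arrays 306, 309 and 310 (1 higher and 1 lower at an unadjusted p under 0.05). Of all genes, 5.18% were called higher with robust eBayes and 3.74% without the 3 arrays, beside 6.35% in the first fit. Leaving out 1 array gave 1 to 7, with 7 without Exercise array 301 and 1 with Exercise 309 or 310 or non-Exercise 327, 329 or 330 left out. The share of all genes called higher was 7.66% without array 301. It was 4.7% and 5.32% without 309 and 310, and 4.83%, 4.55% and 4.3% without 327, 329 and 330. The count of lower genes was 0 in each of these settings. H2-Ab1 did not pass without the trend or with array weights (limma adjusted p = 0.0535 and 0.0663). There H2-Ob passed instead (limma adjusted p = 0.0370 and 0.0416). Where the count was 4, H2-Ob was the added gene, also with the filter on level (limma adjusted p = 0.0450). Without the 3 arrays the log2 change turned for H2-DMa (-0.45), Cd74 (-0.20), Ciita (-0.11) and H2-Oa (0.064), and leaving out 1 array it ran from -0.15 to 0.00058 for H2-Oa. The H2-Oa pair with H2-Aa missed the threshold in the deposited table (1.56, exact permutation adjusted p = 0.0524). The causes were not tested. Those 3 arrays held the highest values of H2-Aa, H2-Ab1, H2-Eb1, Cd74, H2-DMa and Ciita. A smaller change of these genes without them was therefore fixed in advance. With median centring 23.4% of the called genes were higher, beside 37.4%, and the median change of all genes was -0.05. The dim levels of Ciita and H2-Eb2 limit what their changes show. No paired analysis was possible because the groups share no replicate numbers.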
